A study of Arabidopsis thaliana with 109 samples.

Results

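The SAUR family of Arabidopsis thaliana (small auxin-up RNA) was followed through 44 members, taken by gene identifier from a fixed list and found in all 3 expression tables, which hold 33602 gene models each. Of these members, 31 sit in 6 tandem clusters, defined as runs of neighbouring locus numbers on 1 chromosome, and 13 are single loci. A RefSeq gene table gives a SAUR number to 35 further loci, which are not members and enter only as counts. SAUR genes encode small proteins of plants whose transcripts are among the first to rise after auxin. Several of the proteins, SAUR19 among them, inhibit PP2C.D phosphatases, which otherwise dephosphorylate the proton pumps of the plasma membrane, and this acidifies the cell wall and favours cell expansion. In shade, PIF transcription factors act on auxin synthesis and on growth genes, and the hypocotyl elongates.

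The libraries came from light-grown seedlings on Linsmaier and Skoog medium, and low R:FR (a low ratio of red to far-red light, the signal of vegetation shade) was the treatment. Experiment I holds 3 groups of Col-0 wild type with 3 libraries each: white light, a 2 h low R:FR treatment, and the same treatment with 2 h of white light added at its end, called recovery. Experiment II holds pif457_PIF7:PIF7:4xMYC, the pif457 mutant with a MYC-tagged PIF7 under the PIF7 promoter by its name, kept in white light or treated with low R:FR for 5, 10 or 30 min, with 3 libraries each. Experiment III holds Col-0 wild type and pif457 without the transgene, each untreated or treated for 30 min, with 2 libraries each. No label ties replicates to cultures of their own, so the spread behind each p-value may be technical only, and the titles give no hour of harvest. Values are the authors' TPM (a share of all transcripts, scaled by transcript length), and changes are differences of log2(TPM + 1), which understate the change of low genes. The words raised and lowered mark members with an adjusted p under 0.05 (limma, Benjamini-Hochberg over all genes of the table). Groups said not to overlap are described only by their libraries. The share of all genes without overlap was not computed, so a lack of overlap does not set a member apart. The 3 tables were normalised separately and no test crosses them. In whole seedlings, fewer cells of a type and less RNA per cell cannot be told apart.

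PIF7 stood at 25.4 to 28 TPM in the wild type and 0.84 to 1.24 TPM in pif457 in the white light of experiment III, and at 119 to 136 TPM in the white light of the tagged line. In that white light PIF5 and PIF7 passed as lower in pif457 and PIF4 did not (adjusted p = 0.00774, 0.00774 and 0.297), with PIF4 at 11.3 to 11.9 TPM in pif457 and 32.5 to 47.1 TPM in wild type. At 30 min all 3 were lower (adjusted p = 0.0299, 0.00534 and 0.00462 for PIF4, PIF5 and PIF7). Shoot and root markers were both present: the summed level of 4 shoot markers lay between 37638 and 68188 TPM, and that of 7 root markers between 446 and 1631 TPM. Most of the root sum was PYK10, at 403 to 1571 TPM. 1 library stood apart, the first pif457 library at 30 min, in which rRNA and organellar transcripts took 23.1% of TPM.

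Near-identical members share reads, and how the counting split them between neighbours is not recorded, so each cluster is given by its sum as well as by its members. The chromosome 5 cluster holds SAUR19 (AT5G18010), SAUR20 (AT5G18020), SAUR21 (AT5G18030), SAUR22 (AT5G18050), SAUR23 (AT5G18060) and SAUR24 (AT5G18080). On chromosome 1 lie SAUR61 (AT1G29420), SAUR62 (AT1G29430), SAUR63 (AT1G29440), SAUR64 (AT1G29450), SAUR65 (AT1G29460), SAUR68 (AT1G29490), SAUR66 (AT1G29500) and SAUR67 (AT1G29510, for which RefSeq also uses SAUR68). Chromosome 4 has a run of SAUR49 (AT4G34750), SAUR50 (AT4G34760), SAUR1 (AT4G34770), SAUR2 (AT4G34780), SAUR3 (AT4G34790), SAUR4 (AT4G34800) and SAUR5 (AT4G34810), and a trio of SAUR14 (AT4G38840), SAUR15 (AT4G38850) and SAUR16 (AT4G38860). The 2 remaining clusters are SAUR29 (AT3G03820), SAUR28 (AT3G03830), SAUR27 (AT3G03840) and SAUR26 (AT3G03850) on chromosome 3, and SAUR7 (AT2G21200), SAUR6 (AT2G21210) and SAUR12 (AT2G21220) on chromosome 2. The single loci are SAUR41 (AT1G16510), SAUR78 (AT1G72430), SAUR8 (AT2G16580), SAUR10 (AT2G18010), SAUR38 (AT2G24400), SAUR36 (AT2G45210), SAUR32 (AT2G46690), SAUR33 (AT3G61900), SAUR31 (AT4G00880), SAUR25 (AT4G13790), SAUR37 (AT4G31320), SAUR9 (AT4G36110) and SAUR76 (AT5G20820).

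A few members carried most of the family's transcript level. In wild-type white light of experiment I the 44 members summed to 589 ± 36.5 TPM (SD, n = 3), and SAUR78, SAUR32, SAUR6, SAUR14 and SAUR16 together held 67.3% of it, SAUR78 alone 38.5%. Low levels were common: 14 members had a group mean under 1 TPM there, 28 under 5 TPM. SAUR2 was listed at 0 in every library of all 3 tables and SAUR25 in every library of experiment I, so 42 members could be tested in experiment I and 43 in experiments II and III. Members listed at 0 numbered 4 to 20 per library in experiment I and 2 to 5 in the others, and the smallest member value above 0 was 0.67 TPM in experiment I against 0.05 and 0.07 TPM in II and III. TPM keeps no depth, so whether a listed 0 means few reads or no transcript cannot be read from it.

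The low R:FR response of wild type after 2 h was an increase of 10 members, and the summed levels moved by the largest ratios in 2 clusters. SAUR19 to SAUR24 went from a summed 27.8 ± 8.11 TPM in white light to 206 ± 42 TPM (SD, n = 3), 7.4 times the level, and from 4.72% to 23% of the summed level of all members. SAUR26 to SAUR29 went from 4.9 ± 2.62 to 43.1 ± 12.9 TPM, 8.79 times. Of 42 members tested, 10 were raised and 0 lowered, against 1.24% raised and 0.734% lowered of all genes tested. The members' median change was 0.69, with 32 above 0, where the median over all genes was -0.01 and 46% were above 0. The other 35 SAUR loci gave 1 raised and 0 lowered of 27 tested. Because the members were chosen with earlier results of these data known, these shares are set side by side as a description only.

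Within the chromosome 5 cluster 4 of 6 members were raised. SAUR19, whose protein promotes hypocotyl growth when stabilised, had every white-light library listed at 0 and 2 h libraries of 11, 13.6 and 11.2 TPM (adjusted p = 5.19e-05). For SAUR20 the white-light libraries read 18.9, 12.5 and 7.94 TPM and the 2 h libraries 44, 65.5 and 67.8 TPM, a change of 2.14 ± 0.29 (SE, adjusted p = 0.00524). Levels of SAUR21 were 1.85, 6.12 and 3.87 TPM in white light and 49.3, 65.6 and 58.6 TPM after 2 h, a change of 3.66 ± 0.30 (adjusted p = 0.000229). In these 3 genes the groups did not overlap, and their calls held in all 15 alternative settings. SAUR22 read 1.93, 3.2 and 6.07 TPM, then 36.6, 70.5 and 51.4 TPM, a change of 3.55 ± 0.57 (adjusted p = 0.0116); its call ended with a pseudocount of 0.1 (adjusted p = 0.114) and without 2 h replicate 2 (adjusted p = 0.0582). The remaining members did not pass: SAUR23 read 0, 5.52 and 1.74 TPM against 14.3, 12.4 and 15.3 TPM (adjusted p = 0.0533), and SAUR24 read 5.2, 8.46 and 0 TPM against 4.43, 14.5 and 10.6 TPM (adjusted p = 0.557).

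**Figure D1:**
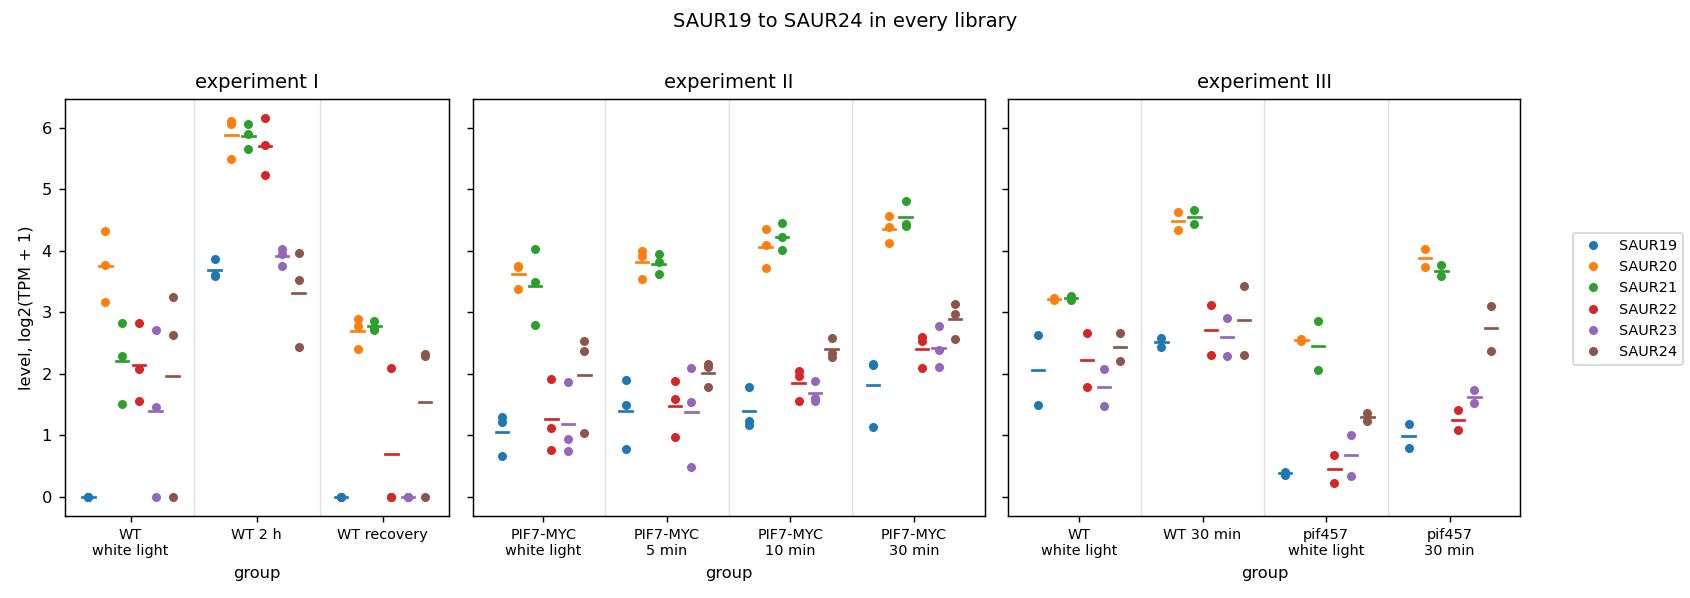
Level of SAUR19 to SAUR24 on the log2(TPM + 1) scale (vertical axis) in each group (horizontal axis) of the 3 experiments; points are libraries, short lines are means of the libraries. In experiment I every 2 h library of SAUR20, SAUR21 and SAUR22 lies above every white-light and every recovery library of that gene, and SAUR19 has values above 0 in the 2 h group alone.

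The chromosome 3 cluster had 3 of 4 members raised after 2 h. SAUR29 was listed at 0 in white light and stood at 3.89, 12.7 and 4.63 TPM after 2 h (adjusted p = 0.00313), a call that held in all 15 alternatives. SAUR27 read 0, 2.84 and 0 TPM, then 13.8, 14.9 and 22.2 TPM, a change of 3.49 ± 0.70 (adjusted p = 0.0361). SAUR26, a member of a subfamily linked to growth at warm temperature, read 1.36, 0 and 0 TPM, then 9.41, 12.8 and 21 TPM, a change of 3.46 ± 0.67 (adjusted p = 0.0292). These latter 2 were less secure. The SAUR27 call ended in 8 alternatives (adjusted p up to 0.116), among them those without white-light replicate 1 or 3, any 2 h replicate, or recovery replicate 3. The SAUR26 call ended in 6 (adjusted p up to 0.0945), among them those without white-light replicate 2 or 3 or any 2 h replicate. SAUR28 was not raised: it read 5.53, 3.05 and 1.93 TPM against 1.59, 6.88 and 5.65 TPM.

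The remaining clusters held 2 of the 10 calls, SAUR1 and SAUR68. SAUR1, in the long chromosome 4 run, read 1.28, 0 and 5.35 TPM in white light and 43, 34.6 and 27.5 TPM after 2 h, a change of 3.86 ± 0.61 (adjusted p = 0.0107; 0.0521 without 2 h replicate 1). Its run summed to 36.7 ± 2.85 and then 91.3 ± 12.8 TPM, 2.49 times, while SAUR50, the member with the highest white-light level there, read 22.8, 27.9 and 25.1 TPM and then 35.2, 51.6 and 32 TPM without passing. SAUR61 to SAUR68 summed to 74.1 ± 14.8 and then 148 ± 19.5 TPM, 1.99 times, with 1 of 8 members called. That member, SAUR68, was listed at 0 in white light and read 1.11, 4.82 and 3.96 TPM after 2 h (adjusted p = 0.016); the call ended in 5 alternatives, with adjusted p up to 0.0674 and including those without white-light replicate 1 or 3 or 2 h replicate 3. Most of the higher sum lay in members that did not pass. SAUR66, the highest of that cluster at 2 h, read 24.7, 14 and 20.4 TPM and then 29.1, 42.5 and 65.2 TPM (adjusted p = 0.0862). SAUR62, SAUR63 and SAUR64 had means of 17.9, 17.1 and 5.76 TPM in white light and 28.7, 35.1 and 17.9 TPM after 2 h (adjusted p = 0.568, 0.163 and 0.241), and none of these 4 genes overlapped between the groups.

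Among single loci only SAUR76, one of the SAURs reported to bind ethylene receptors, was called. It read 0, 0 and 1.39 TPM in white light and 3.42, 2.47 and 4.06 TPM after 2 h (adjusted p = 0.0388), and the call ended in 11 of 15 alternatives (adjusted p up to 0.118), including each that left out a 2 h or a recovery library or white-light replicate 1 or 2. SAUR78, the most abundant member, was not called: its libraries read 204.1, 225.9 and 249.9 TPM in white light and 203.8, 229.5 and 172.4 TPM after 2 h. The trio SAUR14 to SAUR16 and the cluster SAUR6 to SAUR12 kept overlapping sums, 62.4 ± 9.14 against 53.3 ± 14.9 TPM and 56.9 ± 17.1 against 53.8 ± 21.3 TPM. SAUR14 read 36.4, 31.4 and 25.4 TPM and then 17, 14.2 and 18.6 TPM, a lower level in every 2 h library that did not pass (change -0.86 ± 0.21, adjusted p = 0.078). It passed in 2 alternatives, at a mean TPM of at least 1 (0.0491) and without recovery replicate 2 (0.046). SAUR15, the SAUR-AC1 gene of early auxin work, read 1.82, 6.02 and 1.9 TPM and then 14.1, 3.39 and 11.1 TPM. Beside these comparisons, the sum of the 4 shoot markers was 57999 to 68188 TPM in white light and 46581 to 54463 TPM after 2 h. LHCB1.3, LHCB2.1 and CAB3 had lower means after 2 h, while RBCS1A had means of 29376 and 28378 TPM and overlapped. The part of the shoot markers in the members' changes was not tested.

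**Figure D2:**
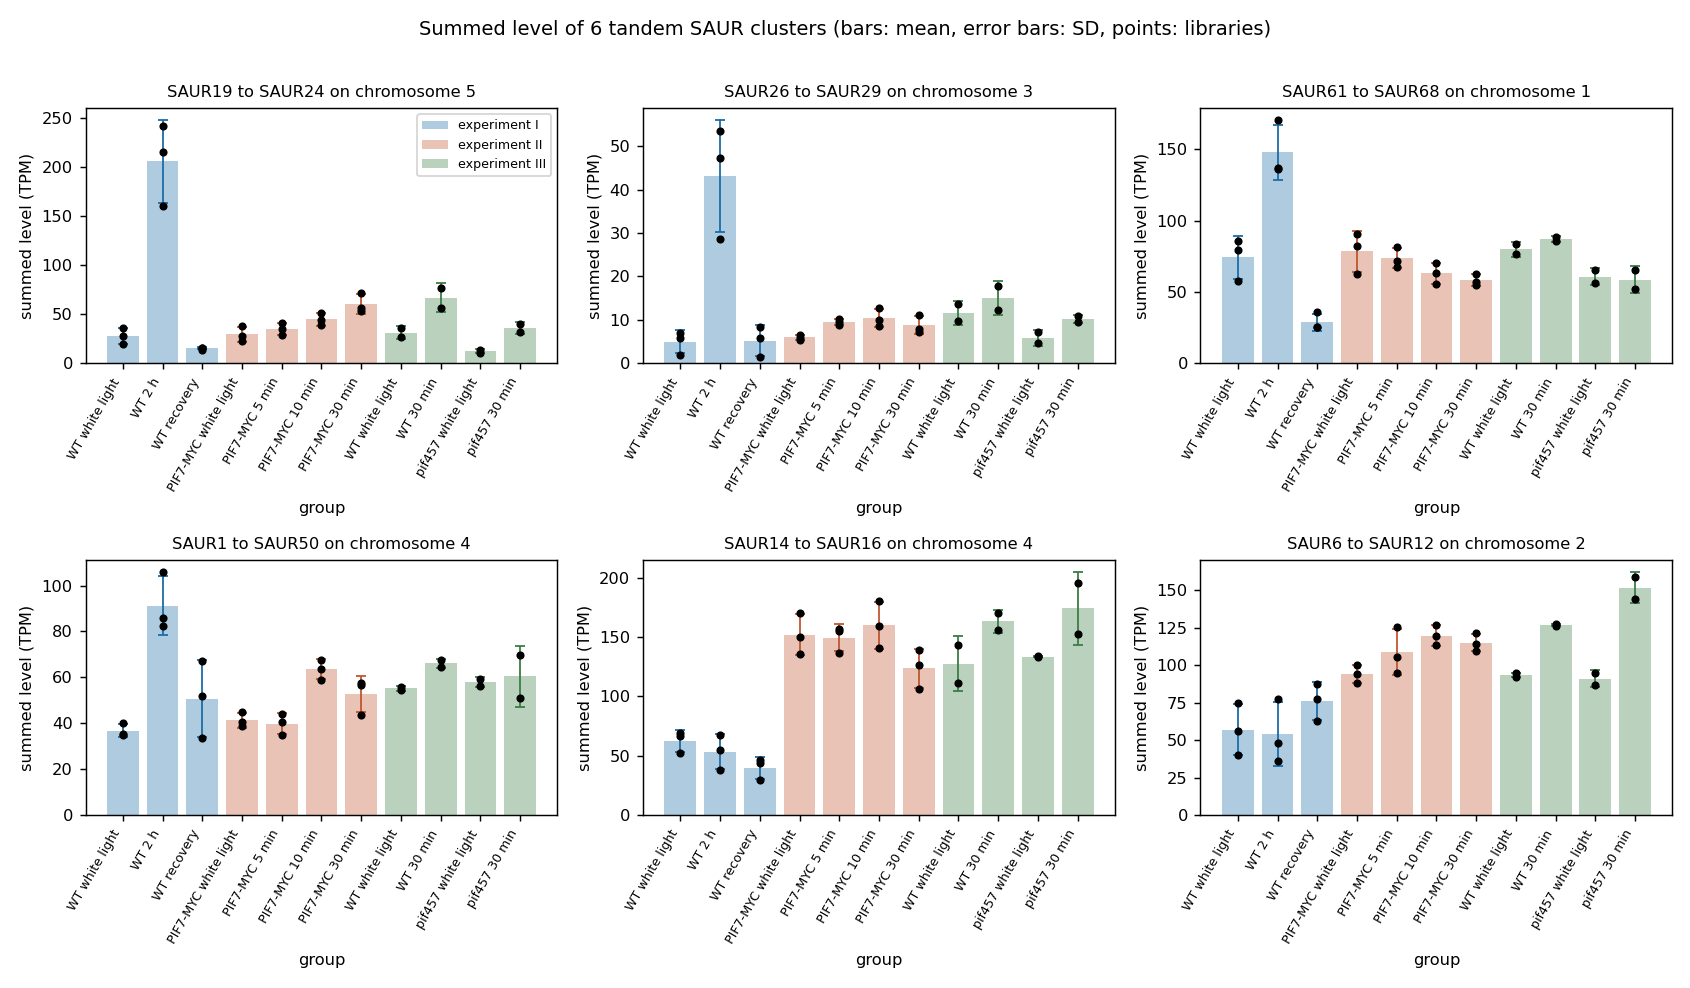
Summed level in TPM (vertical axis) of the 6 tandem clusters in the 11 groups (horizontal axis); bars are means, error bars SD, points libraries, and colours mark the 3 experiments, which were normalised separately. SAUR19 to SAUR24 reach 206 TPM and SAUR26 to SAUR29 43.1 TPM after 2 h in wild type, with white-light means of 27.8 and 4.9 TPM.

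After 2 h back in white light, 7 of the 10 members raised at 2 h were lowered against the 2 h group, and SAUR1, SAUR26 and SAUR27 did not pass (adjusted p = 0.0823, 0.0763 and 0.187), although their groups did not overlap. In all, 11 members were lowered and 0 raised, where 0.746% of all genes were lowered and 0.359% raised. The members' median change was -1.43, and 8 of 42 were above 0. These libraries also serve as the 2 h group of the comparison above, so the values are given side by side and not as a second test of the same rise. The sum of SAUR19 to SAUR24 stood at 15.1 ± 1.15 TPM in recovery (13.7 times lower than at 2 h), that of SAUR61 to SAUR68 at 28.6 ± 6.04 TPM (5.16 times lower) and that of SAUR26 to SAUR29 at 5.22 ± 3.56 TPM (8.26 times lower).

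SAUR19 and SAUR23 were listed at 0 in every recovery library (adjusted p = 3.98e-05 and 0.00781 against 2 h). SAUR20 read 5.87, 4.28 and 6.38 TPM (change -3.20 ± 0.29, adjusted p = 0.000499), SAUR21 read 5.72, 5.57 and 6.22 TPM (-3.10 ± 0.30, adjusted p = 0.000719) and SAUR22 read 0, 0 and 3.25 TPM (-5.01 ± 0.57, adjusted p = 0.00201). All 5 recovery groups lay below their 2 h groups without overlap, and all 5 calls held in the 15 alternatives. The chromosome 1 cluster gave 4 more calls. SAUR66 read 7.05, 6.86 and 5.47 TPM in recovery (change -2.58 ± 0.29, adjusted p = 0.00193), with the call unchanged in 15 alternatives. SAUR63, which promotes hypocotyl and stamen elongation, read 16.7, 26.7 and 8.02 TPM in white light, 35.4, 32.3 and 37.6 TPM at 2 h, and 5.62, 8.25 and 10.5 TPM in recovery (change from 2 h -2.02 ± 0.36, adjusted p = 0.0266).

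SAUR64 read 11.5, 4.08 and 1.72 TPM, then 28.3, 13.8 and 11.8 TPM, then 0, 2.47 and 1.38 TPM (change from 2 h -3.13 ± 0.62, adjusted p = 0.0464), and SAUR68 was again listed at 0 (adjusted p = 0.0202). Outside the cluster, SAUR29 (adjusted p = 0.00354) and SAUR76 (adjusted p = 0.0165) were listed at 0 in recovery. The SAUR29 call held in all alternatives. Those of SAUR63, SAUR64, SAUR68 and SAUR76 ended in 7, 10, 7 and 6 of 15 (adjusted p up to 0.105, 0.188, 0.0932 and 0.0784), in each case including every setting without 1 of the 3 recovery libraries. They also ended without any 2 h replicate for SAUR63 and SAUR64, without 2 h replicate 2 or 3 for SAUR68 and without 2 h replicate 1 or 3 for SAUR76, and for SAUR64 without white-light replicate 2.

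Recovery against the white-light group gave 0 calls in either direction, where 0.395% of all genes were raised and 0.316% lowered (limma, with 12 of 42 members and 13% of all genes at an unadjusted p under 0.05). The members' changes lay on the low side: 13 of 42 were above 0, beside 47.1% of all genes, and the median was -0.23. SAUR66, with 24.7, 14 and 20.4 TPM in white light against 7.05, 6.86 and 5.47 TPM in recovery, did not overlap and missed the threshold (change -1.45 ± 0.29, adjusted p = 0.0563); it passed in 6 alternatives, for example at a mean TPM of at least 1 (adjusted p = 0.0256) and without 2 h replicate 1 (0.0463) or 3 (0.0443). The sum of SAUR61 to SAUR68 was 2.59 times lower than in white light and that of SAUR19 to SAUR24 1.85 times lower, both without overlap of the groups. SAUR41, which promotes hypocotyl growth when overexpressed, ran the other way, with 0.91, 3.79 and 2.86 TPM in white light and 4.95, 6.19 and 9.97 TPM in recovery (adjusted p = 0.298).

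**Figure D3:**
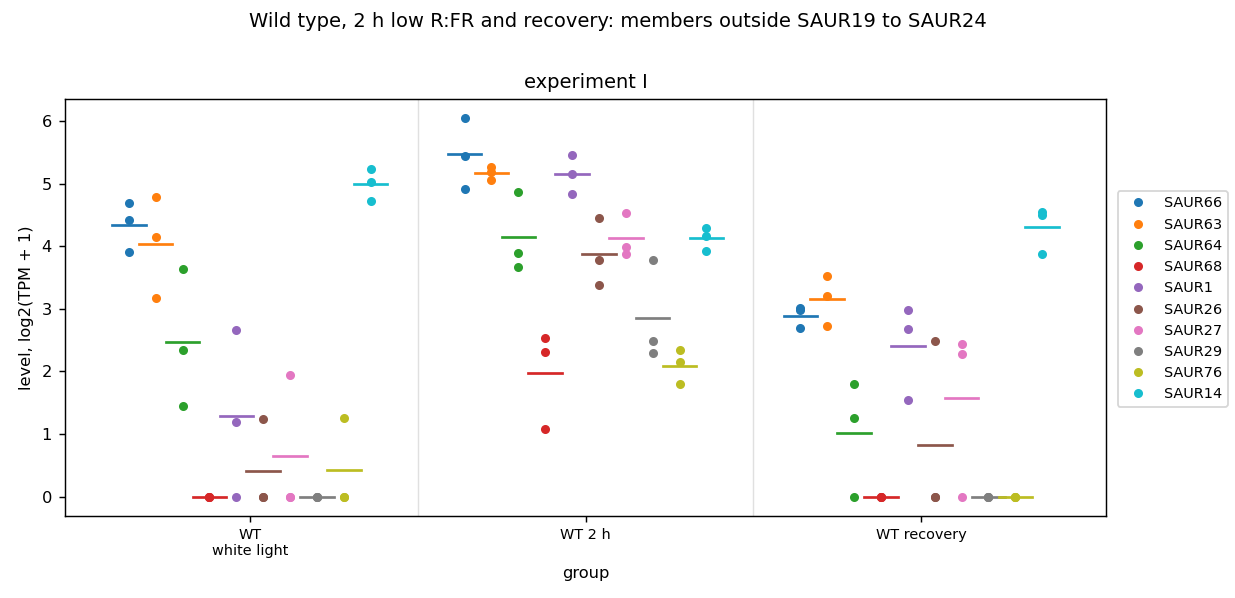
Level on the log2(TPM + 1) scale (vertical axis) of 10 members outside SAUR19 to SAUR24 in the 3 wild-type groups of experiment I (horizontal axis); points are libraries, lines means. SAUR29 and SAUR68 are at 0 in white light and in recovery, and SAUR14 is lower in each 2 h library than in any white-light library.

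In the tagged PIF7 line the members called against white light within 30 min were SAUR29, SAUR50, SAUR21 and SAUR1, all raised, and SAUR78, lowered. After 5 min 1 of 43 members was raised and 0 lowered (2.58% and 1.31% of all genes). After 10 min it was 2 raised and 0 lowered (4.19% and 2.24%), and after 30 min 2 raised and 1 lowered (3.8% and 1.03%). At counts this small the members' shares are close to or below those of all genes, so these calls do not set the family apart. At an unadjusted p under 0.05 stood 3, 13 and 18 of 43 members, beside 19%, 26.9% and 19.7% of all genes. With genes of mean TPM of at least 1, 6 members were raised and 3 lowered at 30 min, beside 6.19% and 1.87% of all genes. This filter also takes out members of low level. The number of members left was not recorded, so these counts have no base of 43. With median centring 1 was raised and 2 were lowered at 30 min, with no share of all genes computed. The members' median change was 0.09, 0.26 and 0.17, and over all genes 0.01, 0.07 and 0.05.

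SAUR29 was the 1 member called at 5 min. It read 2.91, 2.22 and 1.82 TPM in white light, 5.26, 5.08 and 4.26 TPM at 5 min, 4.98, 7.63 and 6.04 TPM at 10 min, and 3.35, 5.42 and 3.88 TPM at 30 min. No library of the treated groups overlapped the white-light ones, with changes of 0.83 ± 0.19 (adjusted p = 0.038) at 5 min, 1.12 ± 0.19 (0.0159) at 10 min and 0.65 ± 0.19 (0.0833) at 30 min. The 5 min call ended in 9 of 18 alternatives (adjusted p up to 0.116), including those without any 5 min replicate, white-light replicate 2 or 3, 10 min replicate 3 or 30 min replicate 3. The replicate block also ended it (adjusted p = 0.0559). The 10 min call ended in 3, with the compared groups alone (adjusted p = 0.055), without white-light replicate 3 (0.0696) and without 10 min replicate 3 (0.0544).

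SAUR50, which takes part in cotyledon opening in light, read 25.3, 25.1 and 27.6 TPM in white light, 22.9, 23.7 and 27.1 TPM at 5 min, 37.4, 34.6 and 43.9 TPM at 10 min, and 27.7, 40.5 and 34.1 TPM at 30 min. The 10 min libraries were above all white-light and 5 min libraries, with a change of 0.55 ± 0.13 against white light (adjusted p = 0.0367) and 0.63 ± 0.13 against 5 min (adjusted p = 0.0117). The call against white light ended in 8 of 18 alternatives (adjusted p up to 0.116), including those without any 10 min replicate, white-light replicate 1 or 3, or 5 min replicate 2, and the call against 5 min ended without 10 min replicate 3 (adjusted p = 0.0503). Its run of 7 summed to 41.3 ± 3.22, 39.9 ± 4.54, 63.5 ± 4.37 and 52.7 ± 7.75 TPM at the 4 times.

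The sum of SAUR19 to SAUR24 was highest at 30 min. The cluster summed to 29.2 ± 7.68 TPM in white light, 34.7 ± 6.03 at 5 min, 44.6 ± 6.44 at 10 min and 60.2 ± 9.79 TPM at 30 min, 2.06 times the white-light level, and the groups of 10 and 30 min did not overlap white light. One of its members was called, SAUR21 at 30 min, with 15.2, 10.2 and 5.9 TPM in white light and 20.7, 26.9 and 20.2 TPM at 30 min (change 1.12 ± 0.26, adjusted p = 0.0358). This call ended in 10 of 18 alternatives (adjusted p up to 0.154), among them those without any 5 min or 30 min replicate, white-light replicate 2 or 3, or 10 min replicate 2. SAUR20 (change 0.73 ± 0.19, adjusted p = 0.0526) and SAUR22 (1.15 ± 0.31, adjusted p = 0.0651) missed the threshold, with no overlap between the groups.

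SAUR1 read 2.03, 0.77 and 1.02 TPM in white light and 3.39, 3.27 and 3 TPM at 30 min (change 0.93 ± 0.23, adjusted p = 0.0445). Its call ended in 11 of 18 alternatives (adjusted p up to 0.145), among them those without any 30 min replicate, white-light replicate 2 or 3, 10 min replicate 1 or 2, or 5 min replicate 3. SAUR78, reported to bind ethylene receptors, was the 1 member lowered at 30 min against white light. It read 128, 107 and 137 TPM in white light and 139, 138 and 123 TPM at 5 min. At 10 min it read 128, 117 and 116 TPM, and at 30 min 79.8, 84.9 and 87.5 TPM. The change at 30 min was -0.55 ± 0.09 against white light (adjusted p = 0.00717), a call that ended with the compared groups alone (adjusted p = 0.0577). SAUR61 to SAUR68 had no call, and their sum was 78.5 ± 14.3 TPM in white light and 58.3 ± 4.01 TPM at 30 min, with overlap.

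Between successive times, 3 members were raised and 0 lowered from 5 to 10 min (9.85% and 5.21% of all genes). From 10 to 30 min 0 were raised and 2 lowered (4.43% and 3.81%). Here too the members' shares are close to or below those of all genes. With median centring the first step had 3 raised and 1 lowered, with no share of all genes computed. From 5 to 10 min these were SAUR50 (above), SAUR31 and SAUR38. SAUR31 read 26.4, 23.4 and 27.7 TPM at 5 min, 38, 32.3 and 34.5 TPM at 10 min, and 19.1, 24 and 25.4 TPM at 30 min; the rise was 0.42 ± 0.11 (adjusted p = 0.0336) and the fall -0.60 ± 0.11 (adjusted p = 0.0115). The rise ended in 6 of 18 alternatives (adjusted p up to 0.104), including those without any 5 min replicate or 10 min replicate 1 or 3. SAUR38 was near the floor, at 0.17, 0 and 0 TPM and then 0.48, 0.91 and 0.3 TPM (adjusted p = 0.0233; 0.0688 and 0.0826 without 5 min replicate 2 or 3). SAUR78 also fell from 10 to 30 min (change -0.51 ± 0.09, adjusted p = 0.00869). The falls of SAUR31 and SAUR78 held in all 18 alternatives. Root markers moved over the same steps: 2 of 7 were raised from 5 to 10 min, and their sum was 696 to 768 TPM at 5 min and 1021 to 1109 TPM at 10 min. Most of that sum was PYK10, with means of 691 and 1030 TPM. SCR had a mean of 28.4 TPM at both times, and EXPA7 and COBL9 had higher means at 10 min (0.56 and then 4.17 TPM, 0.297 and then 2.39 TPM). The part of the root markers in the members' changes was not tested.

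**Figure D4:**
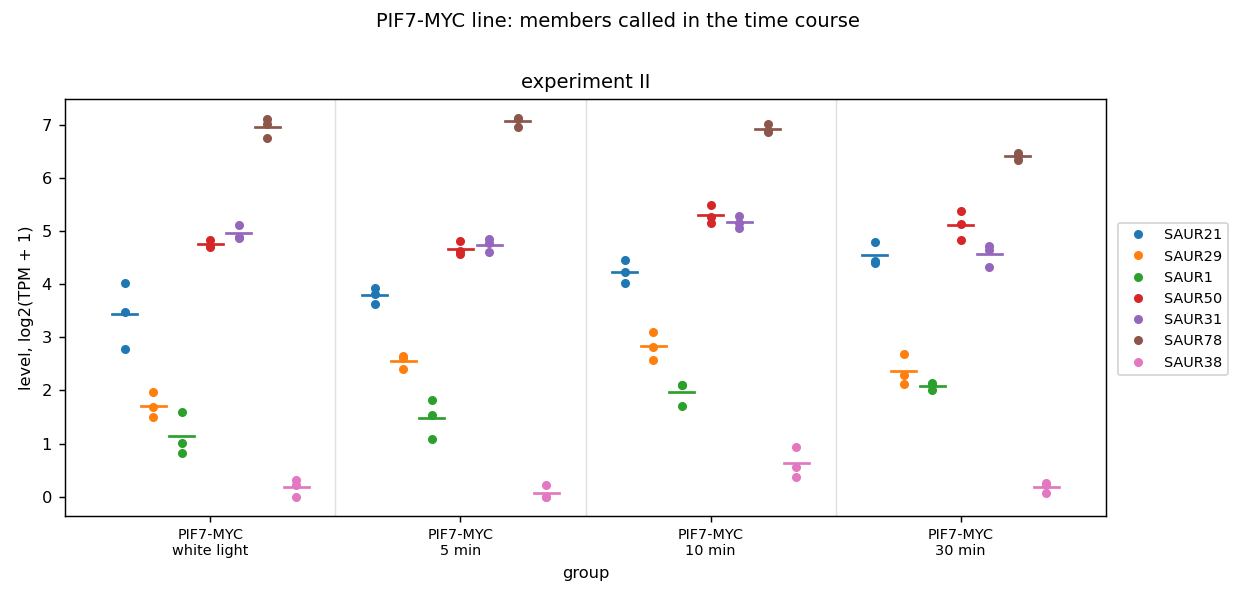
Level on the log2(TPM + 1) scale (vertical axis) of the 7 members called in experiment II, by time in low R:FR (horizontal axis); points are libraries, lines means. SAUR50 and SAUR31 are highest at 10 min, SAUR21 has its highest mean at 30 min, and SAUR78 is lowest at 30 min in all 3 libraries.

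Experiment III compares the response in wild type and in the pif457 mutant. With 2 libraries a group, no member was called for low R:FR in either genotype: 0 raised and 0 lowered of 43 in wild type (0.119% and 0% of all genes; 7 members and 8.73% of all genes at an unadjusted p under 0.05) and 0 and 0 in pif457 (0.0082% and 0.0041%; 11 members and 9.4% of all genes). The difference between the 2 responses had 0 calls as well (0.0082% and 0.0328%; 2 members and 11.6% of all genes). These counts depend on how many low genes enter the fit. A filter on low means leaves the values and the change of a gene as they were. Its smaller adjusted p comes from how the fit pools the spread of genes and adjusts over them. The filter also takes out members of low level, and the number of members left was not recorded. With only genes of mean TPM of at least 1, 5 members were raised and 0 lowered in wild type, beside 2.59% and 0.709% of all genes. In pif457 it was 5 raised and 1 lowered, beside 0.437% and 2.72%, and the difference gave 0 raised and 1 lowered, beside 0.394% and 3.9%.

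The SAUR19 to SAUR24 sum, which has no test, was higher at 30 min in every library of both genotypes. In wild type it read 26.5 and 35.5 TPM in white light and 77 and 56.1 TPM at 30 min, 2.15 times the mean. In pif457 the libraries held 13.8 and 10.8 TPM, then 31.7 and 40.4 TPM, 2.93 times. The sum of the shoot markers was lower at 30 min without overlap in both genotypes, 50757 to 52372 TPM and then 37638 to 41914 TPM in wild type, 48918 to 52402 TPM and then 39496 to 44118 TPM in pif457. The markers did not move together. LHCB1.3, LHCB2.1 and CAB3 had lower means at 30 min in both genotypes. RBCS1A did not, with means of 19423 and then 21270 TPM in wild type, 22385 and then 22984 TPM in pif457. The part of the shoot markers in the members' changes was not tested. In each condition the SAUR19 to SAUR24 sum was lower in both pif457 libraries than in both wild-type libraries. The mean was 2.52 times lower in white light and 1.85 times lower at 30 min. SAUR20 in wild type went from 8.18 and 8.35 TPM to 23.8 and 19.3 TPM (change 1.28 ± 0.20, adjusted p = 0.0858), and in pif457 from 4.75 and 4.88 TPM to 12.4 and 15.4 TPM (1.35 ± 0.20, adjusted p = 0.141). SAUR21 in wild type went from 8.63 and 8.15 TPM to 24.2 and 20.6 TPM (1.31 ± 0.27, adjusted p = 0.14), and in pif457 from 6.23 and 3.17 TPM to 11 and 12.6 TPM (1.22 ± 0.27, adjusted p = 0.261). The groups did not overlap in any of these 4 comparisons, though with 2 libraries a group this is common without any change. The difference between the responses was 0.07 ± 0.28 for SAUR20 and -0.10 ± 0.39 for SAUR21. At a mean TPM of at least 1 both genes passed in both genotypes with the same changes (limma, adjusted p = 4.08e-05 and 2.5e-05 in wild type, 1.52e-05 and 0.000171 in pif457).

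Between genotypes at 30 min 0 members were raised and 3 lowered, where 0.209% of all genes were raised and 5.04% lowered, so the members' share is near the background. With median centring 1 was raised and 3 lowered, and with rRNA and organellar genes removed 1 raised and 5 lowered. Shares of all genes were not computed for these settings, so the counts do not set the members apart from other genes. SAUR19 read 5 and 4.42 TPM in wild type and 0.74 and 1.26 TPM in pif457 (change -1.52 ± 0.34, adjusted p = 0.041). SAUR9 read 0.65 and 1.06 TPM against 0.07 and 0.24 TPM (-0.68 ± 0.14, adjusted p = 0.0354), and SAUR37 read 4.99 and 5.31 TPM against 0.26 and 1.08 TPM (-1.93 ± 0.39, adjusted p = 0.0303). None of these groups overlapped, and the members' median of -0.40 stood beside -0.16 for all genes. The calls ended in 5, 8 and 5 of 14, 13 and 14 alternatives (adjusted p up to 0.319, 0.238 and 0.25), each including those without either wild-type 30 min library or pif457 30 min replicate 1; those of SAUR9 and SAUR37 also ended without either wild-type white-light library, and those of SAUR19 and SAUR9 without either pif457 white-light library.

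Without pif457 30 min replicate 1, the library with 23.1% of rRNA and organellar transcripts, 0 members were called, beside 0.103% of all genes raised and 0.0699% lowered. Without replicate 2, 0 members were raised and 10 lowered, beside 0.585% raised and 32.5% lowered of all genes. In the same comparison 3 of 7 root markers were lowered, and their sum was 1281 to 1474 TPM in wild type and 749 to 1132 TPM in pif457. Most of that sum was PYK10, with means of 1300 and 904 TPM. SCR had means of 25.7 and 25.6 TPM, and EXPA7, COBL9 and IRT1 had lower means in pif457. The part of the root markers in the 3 calls was not tested.

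SAUR37 was the member whose responses differed most in size between genotypes. In wild type it went from 2.1 and 1.05 TPM to 4.99 and 5.31 TPM, and in pif457 from 1.35 and 3.91 TPM to 0.26 and 1.08 TPM. The wild-type groups and the pif457 groups each did not overlap, in opposite directions. The difference of the responses was -2.36 ± 0.55 (limma, adjusted p = 0.172), which passed in 1 of 13 alternatives, the filter on low means (adjusted p = 6.72e-07). The change was the same under that filter, so the smaller value adds no evidence from the 2 libraries a group. SAUR37 was singled out after its values were seen.

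In white light pif457 had 0 members raised and 0 lowered against wild type (0.0123% and 0.0164% of all genes; 12 members and 4.24% of all genes at an unadjusted p under 0.05). Of 43 changes 12 were above 0 with a median of -0.25, beside 57.8% and a median of 0.02 for all genes. SAUR22 read 2.46 and 5.34 TPM in wild type and 0.17 and 0.6 TPM in pif457 (change -1.78 ± 0.37, adjusted p = 0.445), and SAUR19 read 1.81 and 5.17 TPM against 0.32 and 0.28 TPM (-1.68 ± 0.34, adjusted p = 0.403). With genes of mean TPM of at least 1, 6 members were lowered, SAUR19, SAUR22, SAUR23, SAUR24, SAUR1 and SAUR29. The adjusted p (limma) was 1.67e-07 for SAUR22 and 1.19e-06 for SAUR19, at the same changes as without the filter. Of all genes 0.666% were raised and 0.57% lowered under that filter. SAUR6, the most abundant of its cluster, read 88.3 and 90.2 TPM in wild type and 84.2 and 92.3 TPM in pif457 in white light. At 30 min it read 117.8 and 119.6 TPM in wild type and 140.4 and 153.4 TPM in pif457, higher in the mutant without passing (adjusted p = 0.214). SAUR6 passed there with rRNA and organellar genes removed (limma, adjusted p = 0.0428) and with median centring (0.0351).

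**Figure D5:**
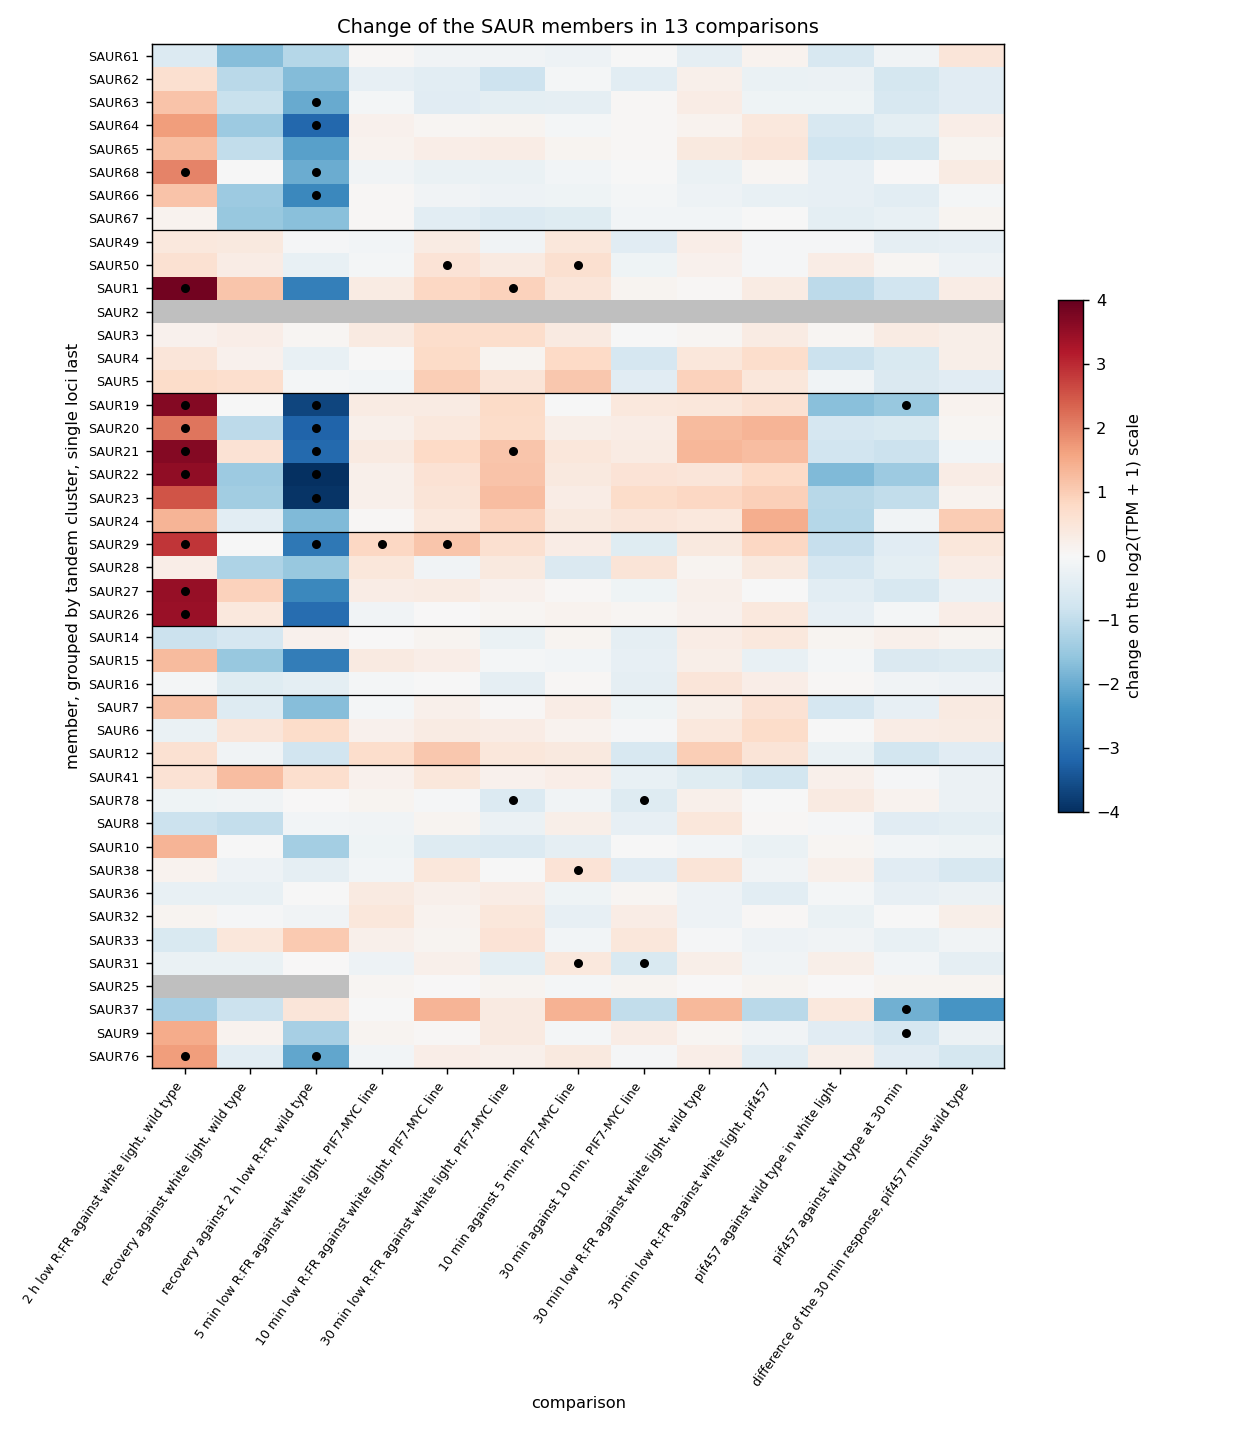
Change on the log2(TPM + 1) scale (colour) of the 44 members (vertical axis, by tandem cluster, single loci last) in the 13 comparisons (horizontal axis); dots mark calls at an adjusted p under 0.05 and grey marks members at 0 in every library of a table. The calls lie mostly in the 2 h and recovery columns of wild type, with 10 and 11 members.

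The partners of the SAUR proteins and the regulators upstream of them were read from 2 lists. Of 11 PP2C.D phosphatases and plasma membrane proton pumps, 3 were raised and 0 lowered after 2 h, PP2C.D1, PP2C.D2 and PP2C.D7. PP2C.D1 read 28.4, 17.8 and 20.4 TPM in white light, 307, 354 and 365 TPM after 2 h and 68.4, 44.4 and 67 TPM in recovery (adjusted p = 9.03e-06 for the rise and 0.000158 for the fall). It stayed between 9.97 and 17.8 TPM through the 30 min of experiment II. PP2C.D7 rose there at 30 min (from 2.93 ± 0.96 to 19.8 ± 0.726 TPM, SD, n = 3; change 2.43 ± 0.21, adjusted p = 9.4e-05), as did PP2C.D6 and the pump gene AHA2, which made 3 raised of 11.

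Of 11 regulators of auxin and SAUR transcription, 4 were raised after 2 h and the same 4 lowered in recovery: the repressor genes IAA19 and IAA29 and the auxin synthesis genes YUC8 and YUC9. IAA19 stood at 1.61, 1.34 and 2.52 TPM, then 85.3, 84.1 and 76.6 TPM, then 7.48, 3.03 and 5.41 TPM. In experiment II YUC9 read 0.19, 0.36 and 0.12 TPM in white light and 4.63, 5.29 and 5.06 TPM at 30 min (change 2.30 ± 0.10, adjusted p = 1.05e-06), while IAA19 read 2.54, 3.69 and 4.17 TPM and then 3.49, 3.68 and 4.15 TPM. At that time 4 of the 11 were raised, HBI1, IAA29, YUC8 and YUC9. YUC9 was the 1 regulator called for a difference of response between genotypes (limma, adjusted p = 0.00883). It went from 0.5 and 0.22 TPM to 17.8 and 15.9 TPM in wild type, and in pif457 from 0.41 and 0.19 TPM to 0.24 and 0 TPM. With 2 libraries a group, the other regulators are not shown to respond alike.

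Binding of PIF7 near the members was read from 3 deposited lists of events, single positions called by GEM on pooled chromatin immunoprecipitation libraries of the tagged line, so the lists have no replicates. A member was counted when an event fell in its span or at most 3 kb away. In the list of low R:FR libraries at ZT4 against wild-type IgG, 7 of 44 members had an event (15.9%), beside 6.06% of 27444 protein-coding genes. In the list of 30 min low R:FR against white light it was 3 of 44 (6.82%), beside 8.67%. In the second ZT4 list, described as low R:FR against white light although its sample numbers are titled the other way round, it was 0 of 44, beside 6.4%. Neighbouring members share events: the 7 members of the first list rest on 5 distinct events and the 3 of the 30 min list on 3. With only events above the median strength the first list held 3 members (6.82%), beside 3.43% of the genes.

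The k-mer that the caller assigned to each of these events was the same. It is a 6-base core known as the PBE-box, a site that PIF factors bind beside the G-box, and it is shown because all 5 and all 3 events near members carried it; capitals mark the whole k-mer.
PBE-box k-mer: CACATG
Over the whole lists, 9.6% of the 1052 events and 13.1% of the 1408 events carried this k-mer, and 62.5% and 69.9% carried one that holds the G-box core CACGTG. In the second ZT4 list, which had no event near a member, 0 of 998 events had CACATG as their whole k-mer. There 79.7% carried a k-mer with the G-box core. The PBE-box counts take only events with exactly this k-mer, while the G-box counts also take longer k-mers that hold the core. Longer k-mers that hold CACATG were not counted, so the PBE-box and G-box shares are not like for like.

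The events at SAUR50 and between SAUR14 and SAUR15 appeared in both the first ZT4 list and the 30 min list. At SAUR50 the event lay inside the gene span, at chr4:16582988 (build TAIR10, fold over control 3.1, -log10 q 22.32, rank 262 of 1052 by strength) and in the 30 min list at chr4:16582985 (fold 3.4, -log10 q 13.22, rank 450 of 1408). The SAUR14 and SAUR15 event, within 1 kb of both genes, lay at chr4:18125641 (fold 7.6, -log10 q 41.17, rank 325) and at chr4:18125644 (fold 4, -log10 q 19.46, rank 252), with a second, weaker one nearby in each list. The 2 further events of the first list were weak: one inside the span of SAUR6 at chr2:9085983 (fold 2.4, rank 976 of 1052), counted for SAUR7 too, and one near SAUR65 and SAUR64 at chr1:10308346 (fold 2.6, rank 941). No list had an event within 3 kb of SAUR19 to SAUR24 or of SAUR26 to SAUR29, the clusters whose sums changed by the largest ratios after 2 h in wild type. How reads of near-identical members were placed in these lists was not checked. With few genes in the 2 clusters and events near a small share of all genes, a lack of events does not show a lack of binding. Of the members with events, SAUR50 was called in experiment II at 10 min, and SAUR64 in the recovery of experiment I. The fold, q value and strength are the authors' own, and gene spans come from a RefSeq table of TAIR10.1.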

How the data were processed

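Per the submitters' processing notes, RNA-seq was processed with STAR 2.6.0c and RSEM 1.3.0 and chromatin immunoprecipitation with Bowtie2 2.1.0, on TAIR10. The deposited tables hold the authors' TPM, with rRNA and organellar genes included. The deposited event lists give the authors' signal (strength), ratio (fold over control) and −log10 q-value. TPM keeps no read depth, so none is given. Columns left unmapped numbered 0.

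Members and gene lists were chosen with earlier results of these data known. Each table was fitted as log2(TPM + 1) in limma 3.58.1 under R 4.3.3, with the trend option, all groups in 1 fit, no replicate block, over genes above 0 in some library; it was tested on simulated data. Residuals of libraries with the same replicate number had median correlations of -0.00875, -0.0579 and -0.0166 in experiments I, II and III. Single pairs reached 0.0613, 0.331 and 0.366, and the lowest were -0.102, -0.288 and -0.26. Pairing of some libraries is therefore not excluded. Cluster sums have no test, nor do events. Alternatives were a pseudocount of 0.1, a mean TPM of at least 1, the block, compared groups alone, rRNA and organellar genes removed, median centring, each library left out, 1 kb, and stronger events.

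The rule was to print values of members called in a comparison or highest in their cluster; SAUR14, SAUR15, SAUR24, SAUR28 and SAUR41 were added after their values were seen. RefSeq (TAIR10.1) paired all 44 members with a locus and gave SAUR numbers through symbols and synonyms; 1 further locus sharing a member's name was left out. Motifs in promoters were not analysed here.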

Additional observations from a re-analysis of the deposited data

How the results depend on the processing

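Of the 35 calls, 13 held in all alternatives run for them and 0 changed sign. Counts of members called are given as the alternative's count beside the reported one, and the cause of a change was not tested. Shares of all genes called were computed for only some alternatives, left-out libraries included. A count given without such a share does not set the members apart from other genes. With a pseudocount of 0.1 they were 6 (from 10) for 2 h and 2 (from 0) for recovery against white light. With genes of mean TPM of at least 1 they were 1 (from 0) for recovery against white light, 2, 5 and 9 (from 1, 2 and 3) for 5, 10 and 30 min (at 30 min 6 raised and 3 lowered), and in experiment III 5 (from 0) for wild type, 6 (from 0) for pif457, 6 (from 0) between genotypes in white light, 6 (from 3) at 30 min, and 1 (from 0) for the difference of responses. With the compared groups alone they were 0 and 0 (from 2 and 3) for 10 and 30 min, 7 (6 raised and 1 lowered, SAUR32, adjusted p = 0.0337, from 3 raised) for 10 against 5 min, and 6 (from 3) between genotypes at 30 min. With rRNA and organellar genes removed they were 1 (from 0) for recovery against white light, 1 and 2 (from 0) for the responses of wild type and pif457, and 6 (1 raised and 5 lowered, from 3) between genotypes at 30 min. With median centring they were 1 (from 0) for recovery against white light, 2 and 1 (from 1 and 2) for 5 and 10 min, and 2 and 4 (from 0) for wild type and pif457. With the replicate block the count at 5 min was 0 (from 1); the block moved no other count by over 1.5 times, though it ended single calls of SAUR27 at 2 h (adjusted p = 0.0867), SAUR63 and SAUR64 in recovery (0.0655 and 0.0935) and SAUR31 at 10 against 5 min.

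Leaving out 1 library gave 6 to 10 for 2 h, 0 to 1 for recovery against white light and 7 to 13 against 2 h, 0 to 2, 0 to 7 and 1 to 4 for 5, 10 and 30 min, 1 to 5 for 10 against 5 min, 2 to 4 for 30 against 10 min, 0 and 0 to 2 for wild type and pif457 at 30 min, and 0 to 10 between genotypes at 30 min. Where it leaves 1 library in a group, that library is assumed to vary like the others. Of 84 ratios of summed levels, 3 moved by over 1 SD when rRNA and organellar genes were removed, and 2 changed sign. Members with a PIF7 event in the first ZT4 list numbered 5 within 1 kb (11.4%, beside 3.06% of all genes) and 3 with events above the median strength (6.82%, beside 3.43%), from 7 (15.9%, beside 6.06%). With 2 libraries a group and many levels under 5 TPM, a member that was not called is not shown to be unchanged.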
